A study of Homo sapiens with 12 samples.

Results

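The replicative helicase genes described here are MCM2, MCM3, MCM4, MCM5, MCM6, MCM7, CDC45, GINS1, GINS2 and GINS3. They were taken by gene symbol, and every probe set annotated to 1 of these symbols alone was kept, which gave 16 probe sets for the 10 genes out of 22215 probe sets and 11963 genes tested. MCM4 had 4 probe sets, MCM5, MCM7 and GINS3 had 2 each, and the other genes had 1 each. GINS4, the remaining GINS subunit, is given with the helicase loading and activation genes.

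RNA was measured on 12 Affymetrix 3′ expression arrays from MDA-MB-231, a triple-negative, mesenchymal human breast cancer line. Every group was given lentivirus that expresses a short hairpin RNA (shRNA). The groups were HDAC5 shRNA and its scramble shRNA, and LSD1 shRNA and its scramble shRNA, with 3 arrays each. LSD1, a histone lysine demethylase, is encoded by KDM1A, and HDAC5 belongs to the histone deacetylase family. Of the scramble sets, 1 is tagged for LSD1, and the untagged one was taken as the control of HDAC5 shRNA, which it also precedes in the series' design text. Replicates are called biological without saying what separates them, so p-values measure the spread between these arrays, which may be technical. The sources used here do not give the time after transduction or the hairpin sequences.

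Values are log2 per probe set after robust multi-array averaging (RMA), so a difference of 1 is a doubling of the signal. The targeted genes were lower in their own experiment. HDAC5 had 6.17, 6.19 and 6.50 on the HDAC5 shRNA arrays, against 7.56, 7.42 and 7.22 on their scramble arrays, a difference of -1.11 (SE 0.11, limma adjusted p = 4.72e-05). KDM1A had 6.48, 6.81 and 6.60 on the LSD1 shRNA arrays, against 9.61, 9.76 and 9.78 on their scramble arrays, a difference of -3.08 (SE 0.12, limma adjusted p = 5.42e-05). Array medians were 6.58 to 6.64 in the HDAC5 experiment and 7.05 to 7.15 in the LSD1 experiment, so levels were compared within an experiment. The mesenchymal markers VIM, CD44, MSN, AXL, EGFR and CAV1 were above the array median on all 12 arrays. Of the luminal markers, GATA3, KRT19 and ERBB2 were above the median and ESR1 and FOXA1 below it on all 12, and PGR was below the lower quartile on all 12. Of the blood markers, PTPRC was below the lower quartile on all 12 arrays, CD14 on 6 and CD3E on 0. Of the endothelial and fibroblast markers, CDH5 was below the lower quartile on all 12 arrays, DCN on 1 and PDGFRB on 0, and PECAM1 was above the median on 6.

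In eukaryotic cells the MCM proteins form a ring that is loaded around DNA at replication origins in an inactive state before S phase. Binding of CDC45 and of the GINS complex turns the ring into the active helicase, called CMG, which unwinds DNA ahead of the polymerases. Transcripts of these genes are known to rise as cells enter the cell cycle and to depend in part on E2F transcription factors, so they are widely used as markers of proliferation.

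HDAC5 shRNA arrays had more RNA of every helicase gene than their scramble arrays. All 16 probe sets rose, by 0.69 (MCM6) to 2.65 (GINS2) on the log2 scale, with a median of 1.76 against -0.01 over all probe sets. All 16 passed an adjusted p of 0.05 in limma (1.39e-08 to 1.31e-05), where 19% of all probe sets were called higher. All 16 also had each shRNA array above each scramble array, which held for 22.5% of all probe sets. By gene, with the brightest probe set standing for its gene, 10 of 10 rose, where 20.7% of genes were called higher and 22.4% lower. The arrays hold bulk RNA, so a larger share of cells that express these genes and more RNA per cell cannot be told apart.

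Among the subunits of the MCM ring, MCM4, MCM5 and MCM2 rose more than MCM3, MCM6 and MCM7, with no overlap between the 95% intervals of these 3 genes and those of the other 3. MCM4, part of the catalytic core of the ring, had 10.33, 10.43 and 10.35 with its brightest probe set (222036_s_at) on HDAC5 shRNA arrays, against 8.67, 8.55 and 8.72 on scramble arrays, a rise of 1.73 (SE 0.06, 3.31-fold, limma adjusted p = 8.4e-08). The other MCM4 probe sets rose by 2.04 (212141_at), 2.12 (212142_at) and 2.13 (222037_at). The probe set 212142_at was at 4.62 to 4.88 on the scramble arrays, close to the lower quartile of those arrays (4.59 to 4.65), and at 6.84 to 6.93 on the shRNA arrays. All 4 MCM4 probe sets thus changed in the same direction, and the 95% interval of the brightest (1.60 to 1.85) lay below that of each of the others.

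MCM5, which sits at the gate through which the ring opens around DNA, had 10.36, 10.40 and 10.50 on HDAC5 shRNA arrays, against 8.65, 8.50 and 8.40 on scramble arrays. That was a rise of 1.90 (SE 0.07, 3.73-fold), and the second probe set (201755_at) rose by 1.96. MCM2, the other gate subunit and a histone chaperone at forks, had 10.82, 10.79 and 10.90 on HDAC5 shRNA arrays, against 9.36, 9.08 and 9.10 on scramble arrays. Its rise was 1.66 (SE 0.07, 3.16-fold), and its interval (1.49 to 1.83) overlapped those of MCM5 and of the brightest MCM4 probe set. For both gate subunits the 3 shRNA arrays lay close together and well above the highest scramble array.

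MCM3, MCM6 and MCM7 rose less. MCM3, through which the ring is first recruited by CDC6 at origins, had 11.10, 11.00 and 11.09 on HDAC5 shRNA arrays, against 9.96, 9.89 and 9.83 on scramble arrays, a rise of 1.17 (SE 0.05, 2.25-fold). MCM7, a core subunit that is ubiquitylated when the helicase is taken off DNA, had 11.27, 11.22 and 11.28 on HDAC5 shRNA arrays, against 10.22, 10.19 and 10.08 on scramble arrays. Its rise was 1.10 (SE 0.05, 2.14-fold), and 1.19 with its second probe set. MCM6, another core subunit and a contact of CDT1 during loading, had 11.06, 11.24 and 11.18 on HDAC5 shRNA arrays, against 10.48, 10.55 and 10.40 on scramble arrays. MCM6 rose by 0.69 (SE 0.06, 1.61-fold, limma adjusted p = 1.31e-05). Its 95% interval of 0.56 to 0.81 lay below the intervals of the other 15 probe sets. The probe sets of the subunits of 1 ring thus differed in the size of their change on these arrays. These intervals measure the spread between arrays and do not cover how probe sets differ in response. The MCM4 probe sets, all of 1 gene, also differed (1.73 to 2.13).

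**Figure D1:**
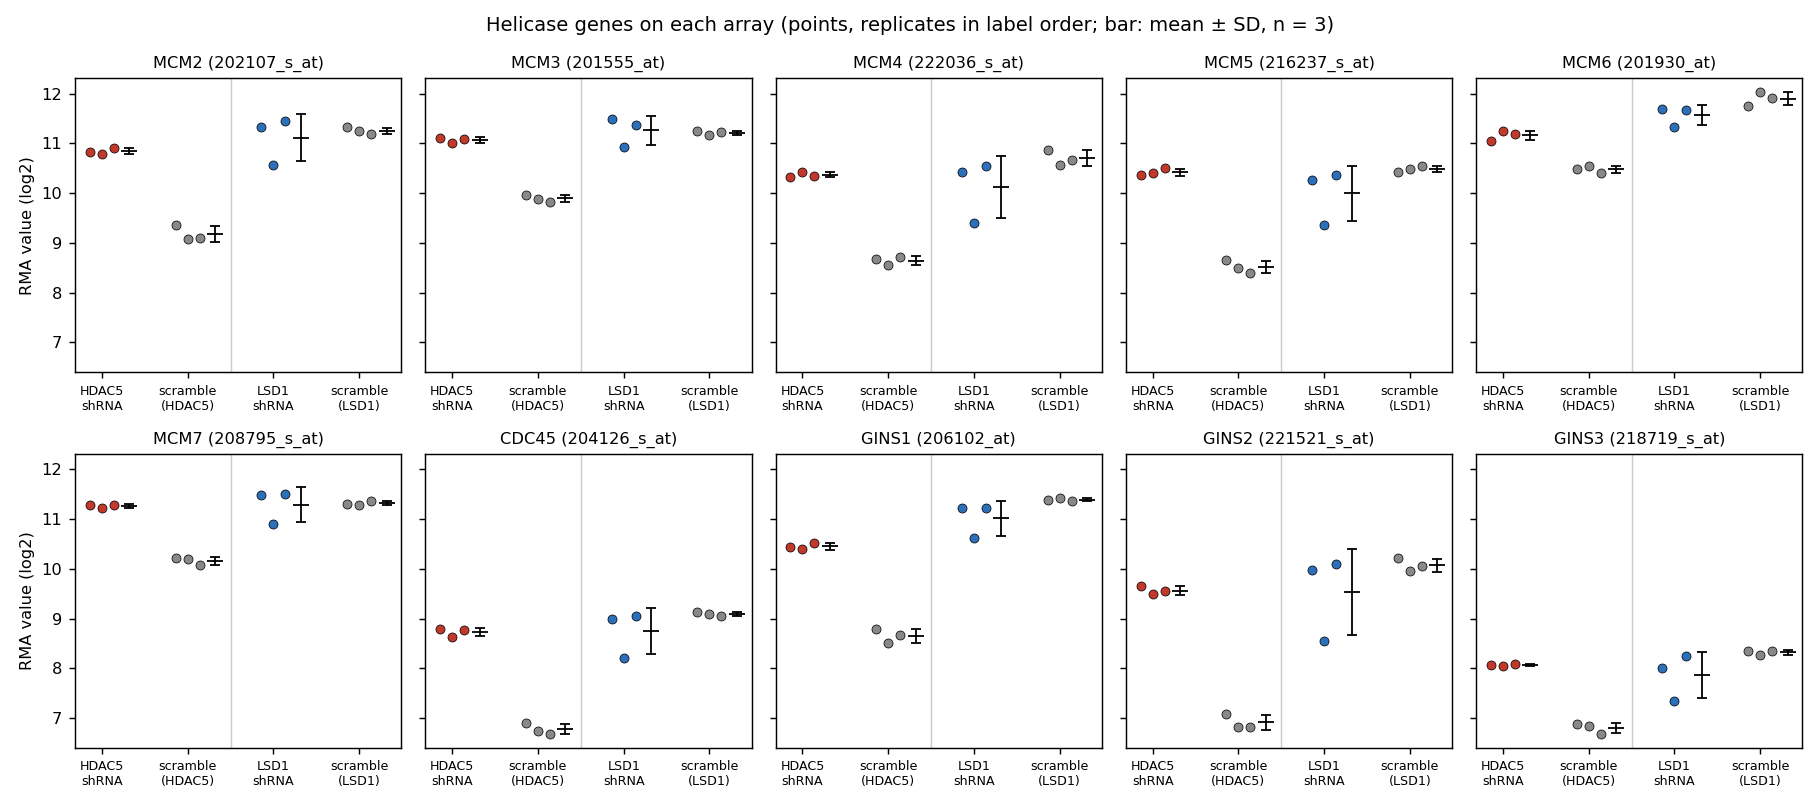
RMA value (log2) of the brightest probe set of each of the 10 helicase genes, with HDAC5 shRNA left of its scramble and LSD1 shRNA left of its scramble; points are arrays and bars are mean ± SD (n = 3). In each panel the 3 HDAC5 shRNA arrays lie above their 3 scramble arrays, and LSD1 shRNA replicate 2 lies below the other arrays of its experiment.

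CDC45 and the GINS genes, which activate the loaded ring, also rose. CDC45 had 8.79, 8.63 and 8.77 on HDAC5 shRNA arrays, against 6.90, 6.75 and 6.69 on scramble arrays, a rise of 1.95 (SE 0.07, 3.86-fold). GINS1 had 10.44, 10.40 and 10.52 on HDAC5 shRNA arrays, against 8.78, 8.50 and 8.66 on scramble arrays, a rise of 1.80 (SE 0.07, 3.48-fold). For each of these genes all 3 shRNA arrays lay above all 3 scramble arrays. GINS2 changed most of the 10 genes, with 9.66, 9.49 and 9.55 on HDAC5 shRNA arrays, against 7.09, 6.83 and 6.83 on scramble arrays. The rise of GINS2 was 2.65 (SE 0.08, 6.27-fold, limma adjusted p = 7.1e-08), and its 95% interval of 2.47 to 2.83 lay above those of the other 15 probe sets. GINS3 had 8.07, 8.04 and 8.08 on HDAC5 shRNA arrays, against 6.88, 6.83 and 6.68 on scramble arrays, a rise of 1.27 (SE 0.07, 2.41-fold), and 1.36 with its second probe set. The probe sets of the GINS subunits therefore also differed in the size of their rise, with those of GINS3 lowest.

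A sign of RNA quality and some cell type markers differed between the HDAC5 groups. The signal of ACTB probes at the 3′ end minus those at the 5′ end was 0.59, 0.72 and 0.73 on HDAC5 shRNA arrays, against 0.95, 0.83 and 0.92 on scramble arrays. The matching value for GAPDH was between 0.00 and 0.03 on all 6 arrays. Each marker is given by its brightest probe set. Of the 4 endothelial and fibroblast markers, 2 fell with HDAC5 shRNA, PECAM1 by 0.62 (SE 0.08) and PDGFRB by 0.48 (SE 0.10) on the log2 scale. CDH5 and DCN were not called. Dimmer probe sets of PECAM1 (-0.30, SE 0.11, and -0.02, SE 0.07) were not called. Of the 6 luminal markers 1 was called, GATA3, higher by 0.29, and of the 3 measured blood markers 0 were called in limma. Dimmer probe sets of GATA3 (0.24, SE 0.09, and 0.07, SE 0.07) were not called. Of the 6 mesenchymal markers, 2 were called higher and 2 lower, EGFR with the largest difference (-0.78, SE 0.07). Over all genes 20.7% were called higher and 22.4% lower, so calls of this kind were common. The part of these measures in the rise of the helicase genes was not tested.

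Since the 10 genes moved together, their promoter sequences were read. RefSeq windows on GRCh38.p14, 250 bases before to 50 bases after the annotated start, were on hand for 8 of the 10 genes (12 windows), and MCM4 and MCM5 had none. Below are the windows of GINS2, whose change was largest, and of MCM2, MCM3, MCM6 and annotated start 3 of MCM7. All but that of GINS2 held 2 or more matches of the E2F core motif. The window of annotated start 2 of MCM7 also held 2 matches and is not shown. The sequences run 5′ to 3′ along the gene's strand, and the capitals mark E2F core motifs on either strand, overlapping matches being joined.
GINS2, chr16:85688905-85689204 (GRCh38.p14, minus strand): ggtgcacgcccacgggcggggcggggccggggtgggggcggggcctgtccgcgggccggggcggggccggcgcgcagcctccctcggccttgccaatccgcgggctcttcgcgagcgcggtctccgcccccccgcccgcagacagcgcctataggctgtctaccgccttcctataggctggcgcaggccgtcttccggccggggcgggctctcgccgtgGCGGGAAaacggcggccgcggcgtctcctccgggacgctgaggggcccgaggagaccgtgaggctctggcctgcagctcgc
MCM2, chr3:127598161-127598460 (GRCh38.p14, plus strand): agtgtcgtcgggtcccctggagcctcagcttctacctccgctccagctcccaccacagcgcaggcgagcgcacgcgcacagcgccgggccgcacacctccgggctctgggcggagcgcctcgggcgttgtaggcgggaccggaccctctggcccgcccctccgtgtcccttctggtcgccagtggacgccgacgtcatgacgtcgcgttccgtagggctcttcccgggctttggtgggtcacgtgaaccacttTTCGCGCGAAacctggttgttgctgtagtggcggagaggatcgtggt
MCM3, chr6:52284693-52284992 (GRCh38.p14, minus strand): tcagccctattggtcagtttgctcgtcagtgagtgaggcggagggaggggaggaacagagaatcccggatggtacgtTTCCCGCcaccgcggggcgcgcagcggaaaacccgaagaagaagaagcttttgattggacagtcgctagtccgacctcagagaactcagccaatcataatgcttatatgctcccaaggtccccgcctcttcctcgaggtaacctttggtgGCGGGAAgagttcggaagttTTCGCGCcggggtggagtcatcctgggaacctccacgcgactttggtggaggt
MCM6, chr2:135876394-135876693 (GRCh38.p14, minus strand): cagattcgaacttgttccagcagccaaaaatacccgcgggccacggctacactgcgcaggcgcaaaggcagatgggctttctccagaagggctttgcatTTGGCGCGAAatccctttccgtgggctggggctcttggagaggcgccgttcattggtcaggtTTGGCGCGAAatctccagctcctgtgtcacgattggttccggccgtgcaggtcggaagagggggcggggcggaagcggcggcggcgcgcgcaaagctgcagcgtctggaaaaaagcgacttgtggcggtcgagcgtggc
MCM7, chr7:100101348-100101647 (GRCh38.p14, minus strand): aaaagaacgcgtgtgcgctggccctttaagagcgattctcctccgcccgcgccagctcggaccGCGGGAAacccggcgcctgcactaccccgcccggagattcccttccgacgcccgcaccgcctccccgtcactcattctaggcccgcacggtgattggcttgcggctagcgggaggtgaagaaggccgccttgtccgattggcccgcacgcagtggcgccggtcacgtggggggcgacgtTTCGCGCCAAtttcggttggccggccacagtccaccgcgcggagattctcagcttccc

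The E2F core was searched on both strands as TTCCCGC or TTCGCGC or TTGCCGC or TTGGCGC. It was found in 8 of the 12 windows and in 7 of the 8 genes, against 4553 of 35116 RefSeq windows and 2163 of 9563 measured genes with a window (22.6% of these genes). MCM6 held 4 matches in 2 overlapping pairs, at positions -151 to -142 and -89 to -80 from the start. MCM2 held 1 overlapping pair, at positions 4 to 13, and MCM7 held 1 across annotated start 3, where a CCAAT match overlapped the pair. GINS2 had a single match, at positions -31 to -25, and MCM3 had 3 that were apart from each other. Whether the number of matches goes with the size of the rise was not tested.

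CDC45 had no match to the E2F core spellings searched in its 3 windows, 2 of which overlap. Other forms of the motif were not searched. CCAAT, the motif bound by NF-Y, was found in 9 of 12 windows and 6 of 8 genes, against 34.6% of windows and 44.2% of genes. The motif of cell cycle genes called CHR, searched as TTTGAA or TTCGAA, was found in the MCM6 window alone, against 16.4% of all windows. These are matches of letters in a fixed window. The windows of the helicase genes had a median of 62.3% G and C, against 58.7% over all windows, and the share of all windows is not matched for this.

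**Figure D2:**
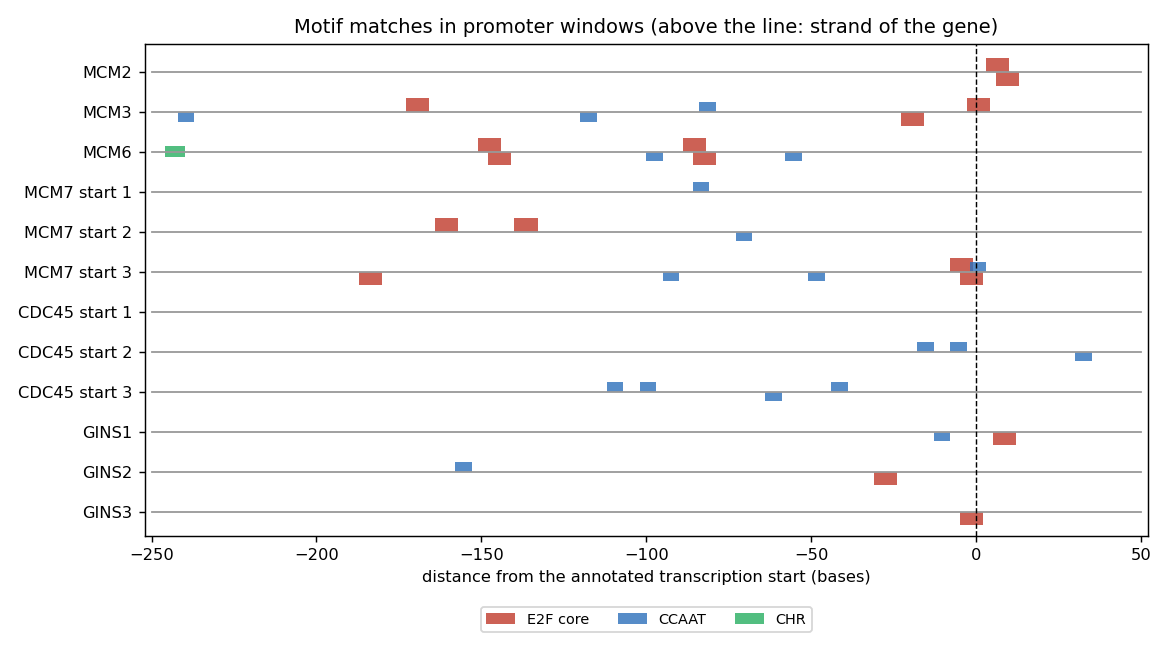
Matches of the E2F core, CCAAT and CHR motifs by distance from the annotated start (bases) in the 12 windows of 8 helicase genes, drawn above the line for the gene's strand and below it for the other. E2F core matches lie in 8 windows, between positions -187 and 13, and none lies in the windows of CDC45.

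LSD1 shRNA gave no call among the helicase genes. None of 16 probe sets passed an adjusted p of 0.05 in limma (0.179 to 0.991), where 3.81% of all probe sets were called in either direction. By gene 0 of 10 passed, against 4.45% of all genes. At an unadjusted p below 0.05 there were 2 of 16 probe sets, MCM6 and MCM5 (201755_at), where 4373 of all 22215 probe sets passed that level. The 16 differences had a median of -0.48 against -0.0013 over all probe sets, with 15 below 0. For 8 of the 16 probe sets every LSD1 shRNA array lay below every scramble array, which held for 12.3% of all probe sets. These were the single probe sets of GINS1 and MCM6, both of MCM5, both of GINS3, and 222036_s_at and 212142_at of MCM4. For CDC45 and for 212141_at and 222037_at of MCM4, the highest shRNA array equalled the lowest scramble array. These ties were not counted.

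A single array carried most of that shift. LSD1 shRNA replicate 2 was the lowest of the 6 arrays for all 16 probe sets, against 25.8% of all probe sets. The median difference of the 16 from the scramble mean was -0.21, -0.99 and -0.10 on replicates 1, 2 and 3. GINS2 showed the widest spread, with 9.98, 8.55 and 10.10 on LSD1 shRNA arrays, against 10.21, 9.96 and 10.05 on scramble arrays, a difference of -0.53 (SE 0.39). MCM4 (222036_s_at) had 10.43, 9.40 and 10.55 on LSD1 shRNA arrays, against 10.88, 10.57 and 10.66 on scramble arrays, a difference of -0.58 (SE 0.29). For GINS2 only replicate 2 lay outside the scramble range, whereas for this MCM4 probe set all 3 shRNA arrays lay below it.

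Without replicate 2 the median difference was -0.17, with 0 of 16 called. KDM1A was at 6.81 on replicate 2, close to 6.48 and 6.60 on the other LSD1 shRNA arrays, and the ACTB 3′ minus 5′ value of replicate 2 was 1.34, against 1.38 and 1.56 on replicates 1 and 3 and 1.26 to 1.37 on the scramble arrays. HDAC5 mRNA was at 8.15 on replicate 2, against 7.32 and 7.10 on replicates 1 and 3, and at 7.22, 7.80 and 6.85 on the scramble arrays. Correlations between arrays of 1 group over all probe sets were 0.9907 to 0.9968 for LSD1 shRNA and 0.9945 to 0.9977 for its scramble. What sets replicate 2 apart was not tested.

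LSD1 shRNA replicates 1 and 3 were also described without replicate 2, a choice made after its values were seen. Both lay below every scramble array for 8 of 16 probe sets, against 18.2% of all probe sets. Both lay above every scramble array for 4 of 16 (25%), near the 19.9% of all probe sets. The 4 were those of MCM2 and MCM3 and both of MCM7. MCM7 (210983_s_at) had 11.27, 10.62 and 11.32 on LSD1 shRNA arrays, against 11.07, 11.09 and 11.07 on scramble arrays, a difference of -0.01 that was 0.22 without replicate 2. MCM2 had 11.32, 10.57 and 11.44 on LSD1 shRNA arrays, against 11.32, 11.24 and 11.20 on scramble arrays, a difference of -0.14 (SE 0.22) that was 0.13 without replicate 2, and its replicate 1 and scramble replicate A were equal at this precision. MCM3 had 11.48, 10.93 and 11.37 on LSD1 shRNA arrays, against 11.25, 11.16 and 11.22 on scramble arrays, a difference of 0.05 (SE 0.14), the only positive one of the 16.

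MCM6 had the smallest p with LSD1 shRNA. It had 11.69, 11.33 and 11.67 on LSD1 shRNA arrays, against 11.76, 12.03 and 11.91 on scramble arrays, a difference of -0.34 (SE 0.12, limma adjusted p = 0.179). CDC45 had 8.99, 8.21 and 9.05 on LSD1 shRNA arrays, against 9.13, 9.10 and 9.05 on scramble arrays, a difference of -0.34 (SE 0.22). GINS1 had 11.23, 10.61 and 11.21 on LSD1 shRNA arrays, against 11.39, 11.42 and 11.36 on scramble arrays, a difference of -0.37 (SE 0.17). In GINS1 and MCM6 all 3 shRNA arrays were under the scramble arrays, and in CDC45 replicate 3 equalled the lowest scramble array. MCM5 had 10.26, 9.35 and 10.37 on LSD1 shRNA arrays, against 10.42, 10.49 and 10.55 on scramble arrays, a difference of -0.49 (SE 0.26). GINS3 (45633_at) had 7.90, 7.23 and 8.07 on LSD1 shRNA arrays, against 8.10, 8.24 and 8.37 on scramble arrays, a difference of -0.50 (SE 0.22). For both genes too, every shRNA array lay under every scramble array.

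**Figure D3:**
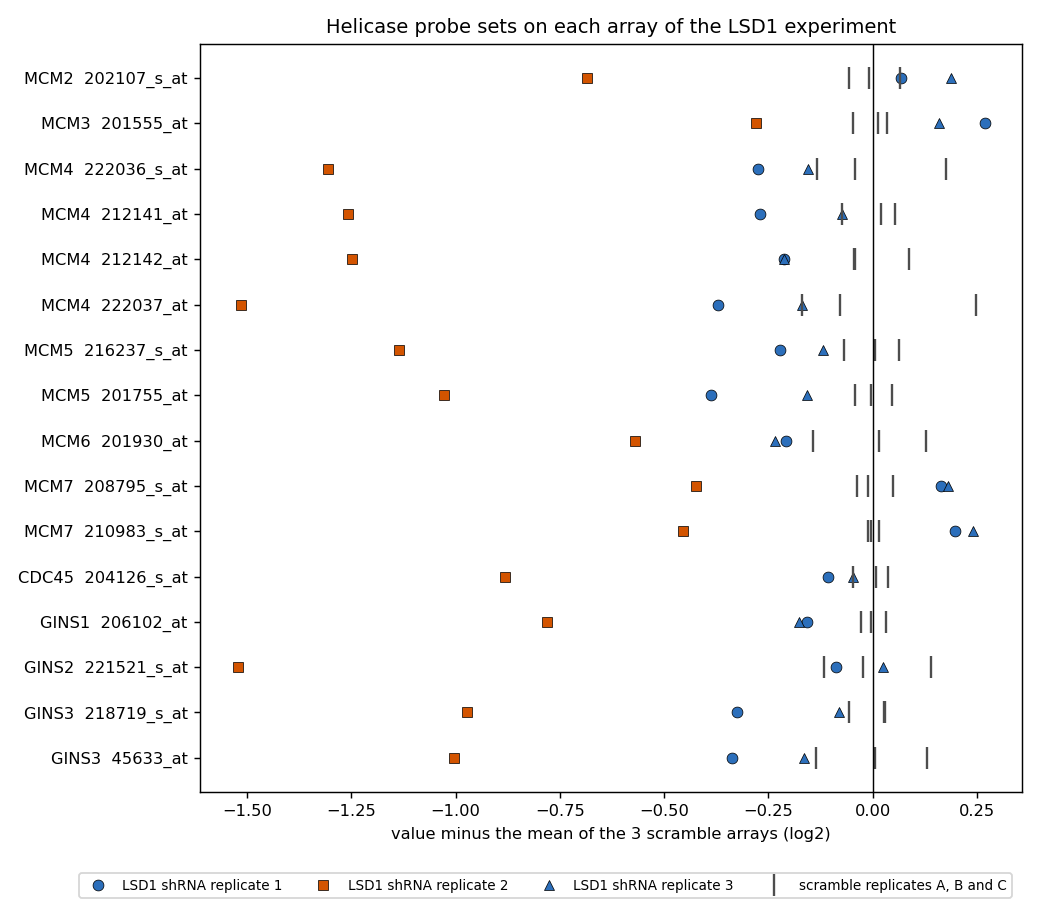
Difference of each LSD1 shRNA array and each scramble array from the mean of the 3 scramble arrays (log2) for the 16 helicase probe sets. Replicate 2 is the leftmost point in each line, with a median of -0.99, and replicates 1 and 3 lie to the right of the scramble arrays for MCM2, MCM3 and both MCM7 probe sets.

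The change with HDAC5 shRNA differed from that with LSD1 shRNA for every helicase probe set. In a limma fit of the 12 arrays the HDAC5 change minus the LSD1 change was positive and called for 16 of 16, where 14.2% of all probe sets were called positive. The differences were between 1.02 (MCM6, SE 0.14) and 3.18 (GINS2, SE 0.43), with a median of 2.23 and adjusted p of 2.15e-05 to 0.000999. MCM3 differed by 1.12 (SE 0.16) and CDC45 by 2.29 (SE 0.25). Each shRNA was measured against its own scramble arrays, so the comparison also holds any difference between the scramble sets.

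**Figure D4:**
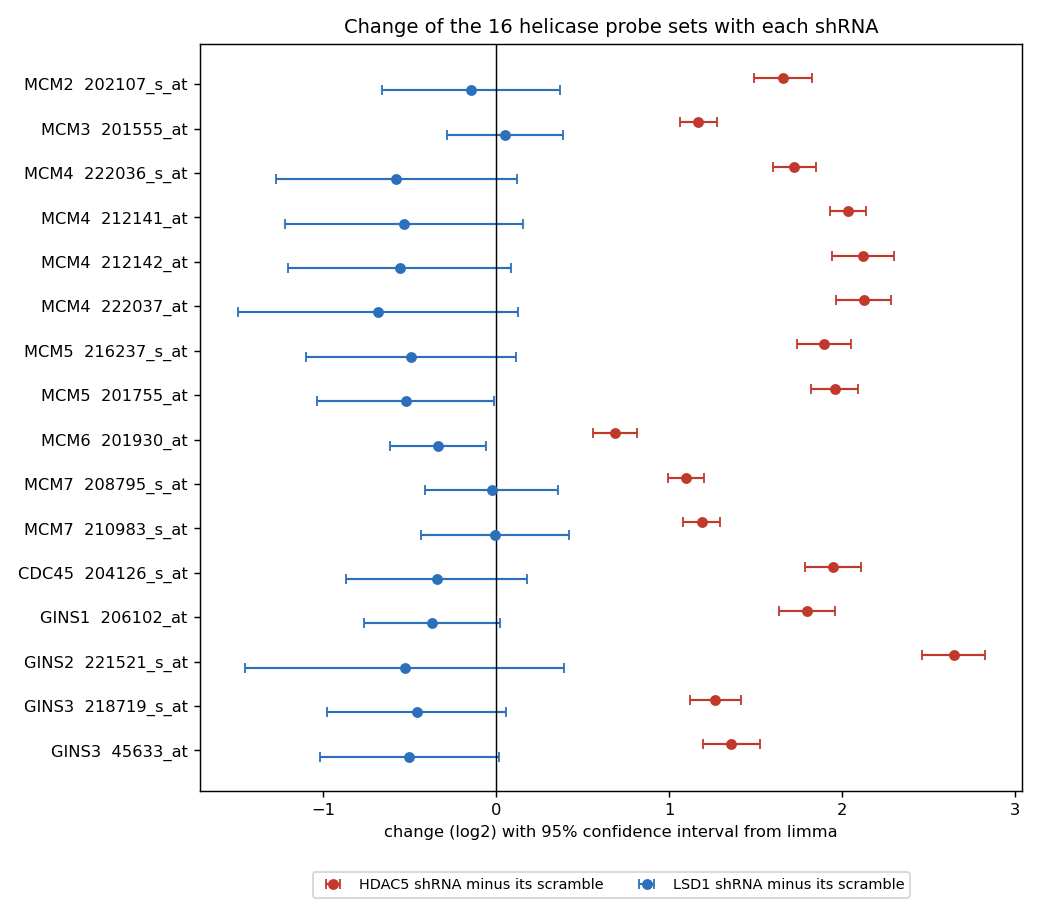
Change of each helicase probe set (log2, shRNA minus its own scramble) with its 95% interval from limma, for HDAC5 shRNA and for LSD1 shRNA. The HDAC5 changes lie between 0.69 and 2.65, and the LSD1 changes between -0.69 and 0.05 with wider intervals.

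The scramble arrays of the experiments did not have like levels of these genes. With each array's median subtracted, the helicase probe sets were lower on the HDAC5 scramble arrays than on the LSD1 scramble arrays with a median difference of -1.48 and a range of -2.73 (GINS2) to -0.72 (MCM7, 208795_s_at). The same difference over all probe sets had a median of 0.02 (SD 0.64). The HDAC5 shRNA arrays minus the LSD1 scramble arrays had a median of 0.11, with a range of -0.51 (MCM4, 222037_at) to 0.70 (MCM4, 212142_at), against 0.06 over all probe sets. On this scale GINS2 was at 2.96 ± 0.11 on HDAC5 shRNA arrays and 0.28 ± 0.14 on their scramble arrays, and at 2.45 ± 0.91 on LSD1 shRNA arrays and 3.01 ± 0.15 on theirs (SD, n = 3 each). For 14 of 16 probe sets (87.5%) the HDAC5 scramble arrays were below the arrays of every other group, against 11.4% of all probe sets. The scramble set and the experiment cannot be told apart here, and these values carry no test.

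Most of the genes listed around helicase loading and activation also rose. The list was not split by whether a gene favours or opposes these steps. Of 22 listed genes, 20 were measured, and with HDAC5 shRNA 16 rose, 0 fell and 4 were not called, where 20.7% of all genes were called higher and 22.4% lower. Their median was 0.88, against -0.02 over all genes. Each gene of these lists is given by its brightest probe set unless another is named. MCM10, needed to start unwinding, rose by 2.41 (SE 0.05), CDC6, a loader of the ring, by 2.14 (SE 0.07), and ORC1, a subunit of the origin recognition complex, by 1.98 (SE 0.15). GINS4 had 8.30, 8.19 and 8.33 on HDAC5 shRNA arrays, against 6.39, 6.25 and 6.49 on scramble arrays, a rise of 1.89 (SE 0.08), so all 4 GINS genes rose. The smallest rises that were called were those of ORC2 at 0.17 (SE 0.05), RIF1 at 0.61 (SE 0.08) and DBF4B, an activator of the kinase CDC7, at 0.64 (SE 0.08). ORC3, ORC4, ORC5 and KAT7 had differences between -0.02 and 0.09 and were not called. Dimmer probe sets of ORC4 (0.36, SE 0.06, limma adjusted p = 0.00074) and of ORC5 (0.20, SE 0.06, limma adjusted p = 0.0211) were called higher, so the probe sets of these 2 genes disagree.

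Fork partners of the helicase, such as polymerases, clamp loaders and single-strand binding proteins, were measured for 27 of 27 listed genes. With HDAC5 shRNA 26 rose and 0 fell, against the same 20.7% and 22.4% of all genes, with a median of 1.06. WDHD1, which ties CMG to polymerase alpha, rose by 1.85 (SE 0.07), POLE2, a subunit of the leading-strand polymerase that binds CMG, by 1.67 (SE 0.05), and FEN1, a flap nuclease, by 1.61 (SE 0.04). The smallest rises were those of POLD2 at 0.29 (SE 0.08), CLSPN at 0.41 (SE 0.08) and RPA3 at 0.59 (SE 0.04). CLSPN was dim, with means of 4.25 on scramble and 4.66 on shRNA arrays, where the lower quartile of these arrays was 4.59 to 4.65. RFC1 (0.12, SE 0.04, limma adjusted p = 0.0535) was not called. A dimmer probe set of RFC1 was called higher, by 0.21 (SE 0.05, limma adjusted p = 0.00748). The median rise of the helicase genes by gene was 1.69, above that of both lists.

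Of 16 measured factors that bind such promoters, 9 rose, 3 fell and 4 were not called, with a median of 0.21. Over all genes 20.7% were called higher and 22.4% lower, so the count that fell was near the share of all genes. A dimmer probe set of TFDP2, whose brightest was not called, was called lower (-0.32, SE 0.09). E2F8, a repressor of the E2F family, rose by 2.61 (SE 0.05), RBL1, a pocket protein, by 0.90 (SE 0.15), and the activator E2F1 by 0.89 (SE 0.05). MYC fell by 0.75 (SE 0.05), the pocket protein RBL2 by 0.74 (SE 0.07) and E2F5 by 0.37 (SE 0.07) on the log2 scale. With LSD1 shRNA 0 genes were called in limma in any of these lists by the brightest probe set, where 4.45% of all genes were called, with medians of -0.19 (loading and activation), -0.28 (fork partners) and -0.09 (promoter factors), against 0.01 over all genes. A dimmer probe set of RFC1 was called, at -0.48 (SE 0.09, limma adjusted p = 0.0368). At an unadjusted p below 0.05 the counts were 1 of 20, 5 of 27 and 6 of 16 genes, where 4373 of all 22215 probe sets passed that level. The 6 promoter factors lay on both sides of 0, from -0.66 (MYC) to 0.63 (TFDP2). The change with HDAC5 shRNA minus that with LSD1 shRNA was called positive for 15 of the 20 loading and activation genes and 26 of the 27 fork partners. Over all probe sets 14.2% were called positive, and the share over genes was not taken.

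**Figure D5:**
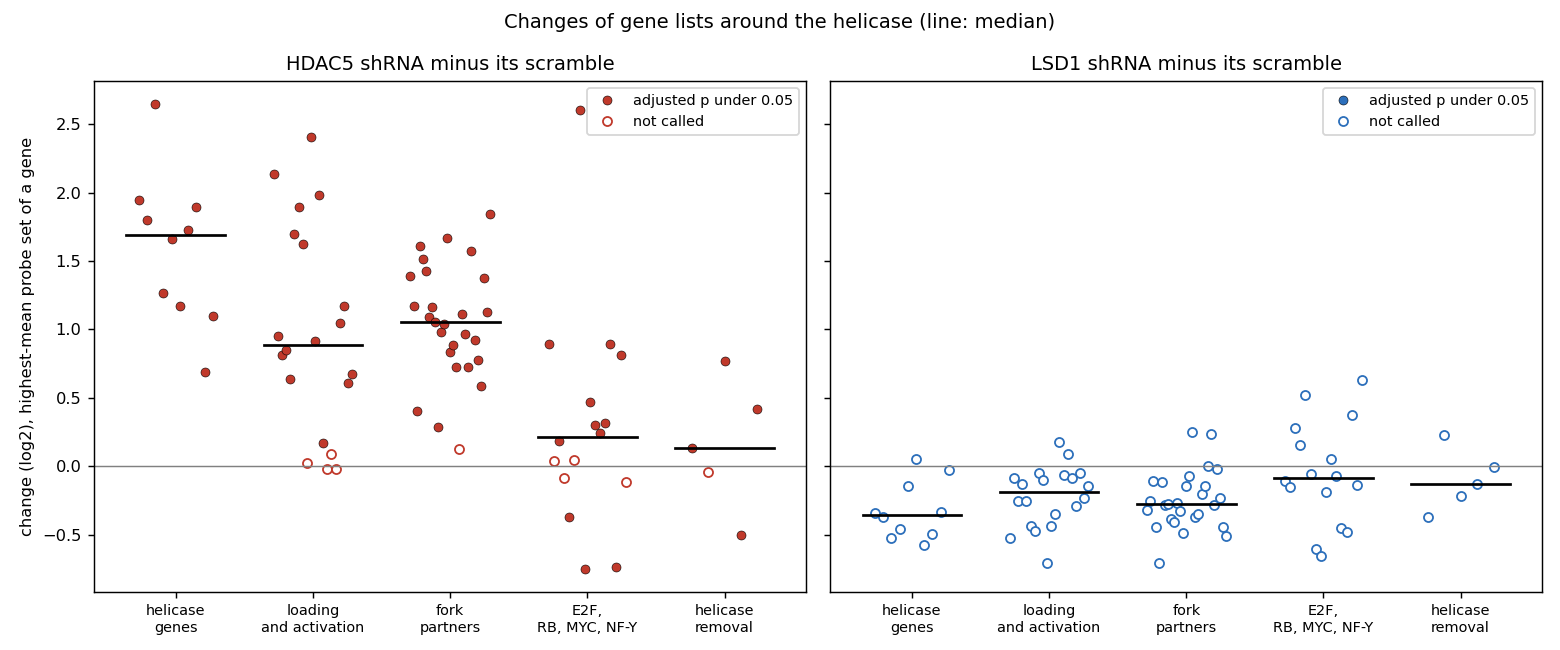
Change of each gene (log2, shRNA minus its own scramble) in the helicase and in the lists of related genes, for HDAC5 shRNA and LSD1 shRNA; each point is 1 gene, filled where called, and lines are medians. With HDAC5 shRNA the helicase genes have a median of 1.69, against 0.88 for loading and activation genes and 1.06 for fork partners.

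The 10 genes tracked each other across arrays. With every value taken minus the mean of its own scramble arrays, the 45 pairs of helicase genes had Pearson's r of 0.89 to 0.997 over the 12 arrays, with a median of 0.98. The genes outside the set most like their mean were ZWINT (a kinetochore protein, r = 0.998), TRIP13 (an ATPase of the spindle checkpoint), MCM10, TUBB4B (a tubulin), CDC6, KIF22 (a chromosome-bound kinesin), USP1 (a deubiquitinase of PCNA) and E2F8 (r = 0.9965). High likeness was common, since 946 of 11953 genes had r above 0.9. The arrays share labelling and normalization, and the 3 HDAC5 shRNA arrays stand apart on both axes, so these correlations are a description.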

How the data were processed

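The authors deposited log2 values per probe set, made with RMA in the affy package per the submitters' processing notes. The sources used here give neither versions nor whether all arrays were normalized as 1 set. RMA removes shifts shared by most transcripts and compresses differences at low signal. Per the labels' protocols, total RNA was column-purified with a DNase step and labelled with biotin as cRNA.

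All 12 value columns were matched to samples and 0 were left over. Of 22277 probe sets, 62 controls were left out. Of the rest, 19064 had 1 symbol, 1043 several and 2108 none. Symbols followed the RefSeq gene table of GRCh38.p14 (19052 matched by gene ID, 12 kept as annotated). No probe set of several symbols held a helicase gene. Names ending in _s_at or _x_at can match related transcripts.

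Each shRNA was compared with its own scramble arrays (6 arrays, limma 3.58.1 in R 4.3.3, lmFit and eBayes with a trend, Benjamini-Hochberg over 22215 probe sets, threshold 0.05). The changes were compared with each other in a fit of 12 arrays. A gene took its probe set with the highest mean. Fits were tested on simulated data. The number of arrays limits the precision, since arrays have no counting depth. The alternatives were 1 fit of 12 arrays, other scalings, a filter on dim probe sets, a replicate block and each array left out.

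The genes, the lists and the tests were chosen with earlier results of these data known. Named genes are the 10 helicase genes, both targets, up to 3 largest and 3 smallest called changes of each list with HDAC5 shRNA, the neighbouring genes and the 8 genes most like the helicase mean. GINS4, the uncalled list members and the markers were named beyond that rule.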

Additional observations from a re-analysis of the deposited data

How the results depend on the processing

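With HDAC5 shRNA all 16 helicase probe sets and all 10 genes were called higher in every setting run, and all 16 differences from the LSD1 change were called positive. The median HDAC5 change was 1.70 to 1.81 with 1 array left out. Replicate numbers did not pair the HDAC5 arrays (correlations of same-numbered deviations -0.05, -0.21 and -0.14), and with a replicate block 16 of 16 probe sets were called with a median of 1.76, and 7621 of all probe sets against 8489. No block was possible for LSD1, whose scramble arrays carry letters. With 1 fit of 12 arrays, 1 helicase probe set and 1 gene were called for LSD1 shRNA, MCM6 at -0.34 (limma adjusted p = 0.0372), against 0.179 in the fit of 6 arrays. That fit called 5539 of all probe sets for HDAC5 and 3485 for LSD1, against 8489 and 847 in fits of 6. With 1 array left out, the LSD1 total was 112 to 1062 and the helicase median -0.66 to -0.17, with 0 called. The median was -0.16 without LSD1 shRNA replicate 2 and scramble replicate B together, a setting chosen after seeing the data, which called 91 in all. Some uncalled LSD1 differences changed sign: the cause was not tested. Leaving out 1 array gave -0.31 to 0.13 for MCM2, -0.060 to 0.21 for MCM3, -0.13 to 0.17 for MCM7 (208795_s_at) and -0.13 to 0.22 for MCM7 (210983_s_at). Without those 2 arrays together these were 0.12 for MCM2, and 0.15 and 0.23 for the MCM7 probe sets. Quantile normalization gave 0.022 for MCM7 (210983_s_at). MCM3 was -0.060 and -0.0055 without LSD1 shRNA replicates 1 and 3, and MCM7 (210983_s_at) was 0.0025 without scramble replicate B.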

Other observations

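Of 20 measured neighbours of the helicase genes in the RefSeq gene table, 5 were called higher and 8 lower in limma with HDAC5 shRNA, with a median of -0.14. Over all genes 20.7% were called higher and 22.4% lower. The neighbours of GINS2 moved apart from each other: EMC8 was higher by 0.52 (SE 0.04) and GSE1 had a difference of -1.28 (SE 0.05). UFD1, a cofactor of the segregase VCP and the neighbour of CDC45, was higher by 0.58 (SE 0.05). With LSD1 shRNA, where 4.45% of all genes were called, 3 of the 20 neighbours were called, PRKDC (-0.38) and UBE2V2 (-0.47) beside MCM4 and AP4M1 (0.57) beside MCM7.

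Genes listed apart for an MCM name or for helicase removal gave the following values with HDAC5 shRNA. MCM9, a paralog of the ring subunits that acts in repair, rose by 0.46 (SE 0.10) with its brightest probe set. Its dimmer probe set (0.25, SE 0.11, limma adjusted p = 0.115) was not called. MCMBP, a binding protein of MCM subunits that is also in the loading and activation list, rose by 0.92 (SE 0.06). MCM3AP, an mRNA export factor named for its binding to MCM3, had a difference of 0.08 (SE 0.05) with its brightest probe set and was not called, while 1 of its 4 dimmer probe sets was called higher, by 0.27 (SE 0.08, limma adjusted p = 0.025). Of 5 measured removal genes, 3 rose, 1 fell and 1 was not called, where 20.7% of all genes were called higher and 22.4% lower. The ubiquitin ligase TRAIP rose by 0.77 (SE 0.06) and VCP by 0.41 (SE 0.04). The ligase scaffold CUL2 rose by 0.13 (SE 0.05, limma adjusted p = 0.0466). UBXN7, a VCP cofactor, fell by 0.50 (SE 0.06) on the log2 scale with its brightest probe set. Its dimmer probe set (-0.14, SE 0.06, limma adjusted p = 0.0736) was not called. With LSD1 shRNA 0 of these genes were called in limma by the brightest probe set, where 4.45% of all genes were called. List medians were -0.44 for the MCM-named genes and -0.13 for removal. At an unadjusted p below 0.05 the counts were 2 of 3 and 1 of 5 genes, where 4373 of all 22215 probe sets passed that level. MCM9 was counted here by its brightest probe set, at -0.58 (SE 0.13) with LSD1 shRNA. Its dimmer probe set was at 0.47 (SE 0.17), so the MCM9 probe sets disagree in direction.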
